A study of Mus musculus with 5 samples.

Results

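To describe imprinted genes in the pluripotent and somatic libraries of this study, 37 genes known to be imprinted in the mouse and lying outside the Dlk1-Dio3 domain were taken by their symbols from the 24421 genes of the deposited RNA-seq tables. All 37 symbols were present in both tables. The genes belong to 18 imprinted loci, and 23 of them are known to be expressed from the paternal allele and 14 from the maternal allele. The data comprised 5 mouse libraries, 1 per condition. MEFs are fibroblasts from E13.5 embryos of CF-1 mice, iPSCs are a reprogrammed line that the study's methods trace to a cell repository, and V6.5, an embryonic stem cell line, was sequenced untreated and is called mESCs here. The other 2 libraries were V6.5 cells given a non-targeting control shRNA (NTC) or an shRNA against Gldc (shGldc), the glycine decarboxylase of the glycine cleavage system. The labels give no genotype, passage, or time after shRNA for these libraries. The methods state the passages used after thawing for V6.5, iPS cells, and MEFs in general. They describe ES and iPS culture on gelatin with leukaemia inhibitory factor, with or without feeder cells. No library was replicated, so the differences below have no replicate check, and neither an SD nor a p-value is given.

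In genomic imprinting, DNA methylation laid down in the egg or the sperm marks one parental copy of a control region, and nearby genes are then read from only one of the parental alleles. Many imprinted genes act on fetal and placental growth, and the marks of embryonic stem cells and iPSCs are known to be lost or gained in culture. FPKM, a level scaled to transcript length and to the mapped fragments of the library, counts RNA from both alleles together, so the parental grouping used here is that of the known expressed allele and was not measured. The values are from bulk RNA, in which fewer cells of a type and less RNA per cell cannot be told apart.

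Cell identity and the targeted gene were checked first. All 12 fibroblast markers were lower in the pluripotent libraries, and Pou5f1, which encodes the pluripotency factor Oct4, was at 0.309 FPKM in MEFs and between 915 and 1215 FPKM in the other 4 libraries. Among the pluripotent libraries, the untreated V6.5 library was the highest for Col1a1, Col1a2, Col3a1, Fn1, Postn, Lum, and S100a4, and another was higher for Thy1, Pdgfra, Pdgfrb, Vim, and Twist1. Its median level over the 12 fibroblast markers was 2.22% of that in MEFs, against 0.156% in iPSCs, 0.470% in NTC, and 0.242% in shGldc, and its Col1a1 level was 20.5 FPKM, against 1.68, 1.24, and 0.125 FPKM. The sum over the list was 11743 FPKM in MEFs, 104.9 in iPSCs, 242.0 in untreated V6.5 cells, 279.6 in NTC, and 226.4 in shGldc, where Vim and Fn1, which pluripotent cells also express, made up most of the last 3 sums. MEFs also expressed 9 of 10 macrophage markers at 1 FPKM or more, with a sum over the list of 307.6 FPKM against 11.4 to 21.9 FPKM elsewhere. C1qc, a complement gene of macrophages, was at 39.8 FPKM in MEFs and listed at 0 in the other libraries, and Cd68 was detected in all 5. Gldc was at 74.7 FPKM in NTC and 2.07 FPKM in shGldc, which left 2.77%. The estimated depth ranged from 22100000 to 29000000 fragments, and that of NTC and shGldc was uncertain by a factor of 2.

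The 37 genes covered a wide range of levels. The H19 lncRNA was the most abundant of them in MEFs, at 2451 FPKM, which was rank 12 among all genes of that library. In the pluripotent libraries the most abundant were H19 in iPSCs and shGldc, Phlda2 in untreated V6.5 cells, and Snrpn in NTC. The place of Snrpn is uncertain, because it shares reads with the overlapping gene Snurf. The values of Snrpn and Snurf were 53.1 and 4.07 FPKM in NTC and 26.8 and 29.1 FPKM in untreated V6.5 cells. By contrast, Airn, Asb4, Kcnq1ot1, Magel2, Rasgrf1, Usp29, and Zim1 stayed below 1 FPKM in all 5 libraries. These 7 genes entered no count of higher or lower genes, and their values are given at the end.

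**Figure D1:**
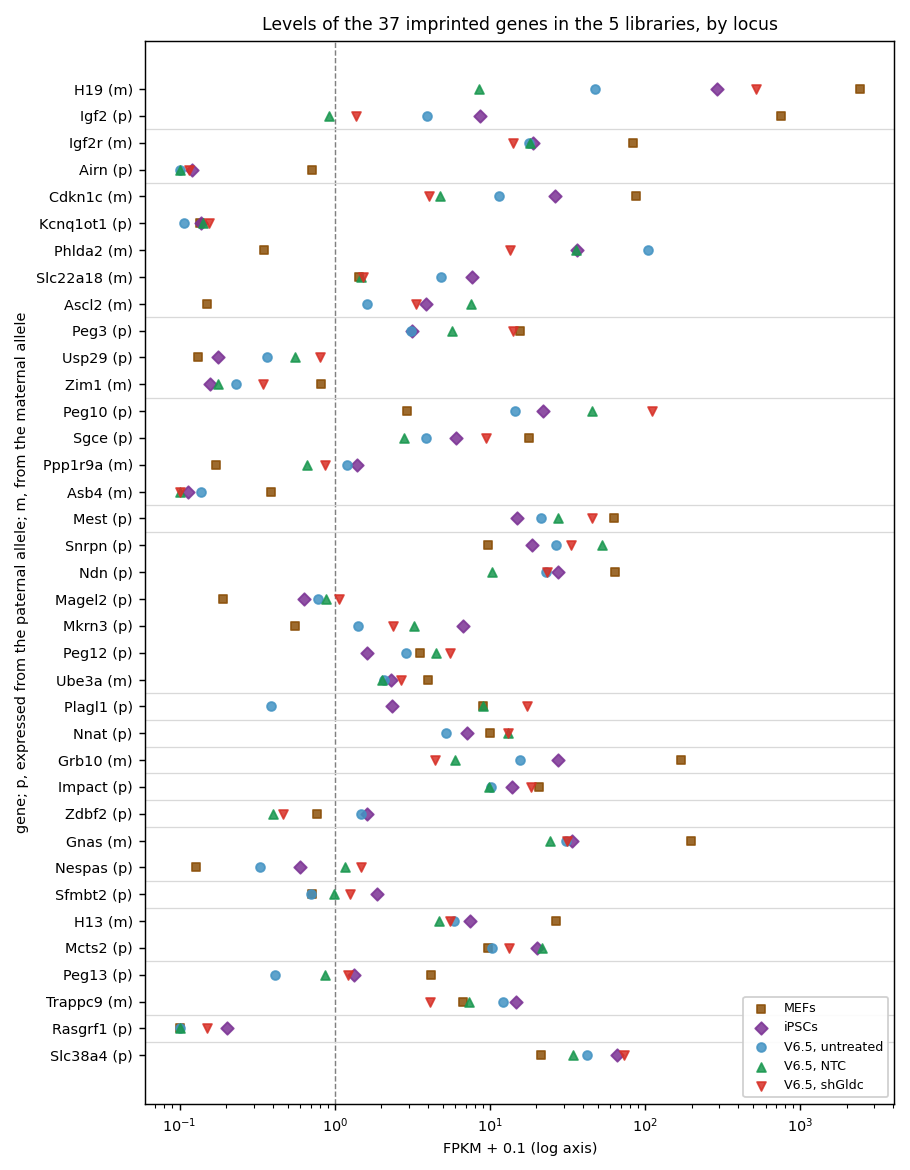
FPKM + 0.1 (log axis) of the 37 imprinted genes in the 5 libraries, 1 point per library, ordered by locus, with p or m for the allele known to be expressed and a dashed line at 1 FPKM. H19 and Igf2 lie far to the right in MEFs, and H19 spreads from 8.42 to 518.5 FPKM among the 3 V6.5 libraries.

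To compare pluripotent cells with somatic cells, log2 ratios of FPKM + 0.1 were taken between libraries of the same table, for genes that reached 1 FPKM in either of the libraries compared, and a difference of 2-fold or more was counted as higher or lower. Fold changes of single genes are ratios of FPKM without the added 0.1. In mESCs over MEFs, 28 of the 37 imprinted genes passed the filter, 7 were higher, and 14 were lower. Of all 12840 genes that passed, 30.3% were higher and 23.3% were lower. The median log2 ratio was -0.98 over the imprinted genes and 0.25 over all genes. In iPSCs over MEFs, 29 passed, 11 were higher, and 14 were lower, and 31.5% and 21.3% of 13032 genes were higher and lower. The median log2 ratio was -0.79 over the imprinted genes and 0.31 over all genes. Equalizing the FPKM sums of the libraries shifted the median of all genes by -0.24 in mESCs and -0.30 in iPSCs over MEFs. It left 7 higher and 16 lower imprinted genes in mESCs and 8 higher and 15 lower in iPSCs, where Zdbf2, Mcts2, and Trappc9 then stayed under 2-fold, and turned only the small mESC ratio of Mcts2, from 0.08 to -0.15. Both comparisons use the same MEF library, so they are not independent of each other.

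The paternally and maternally expressed genes did not divide by direction against MEFs. In mESCs, 3 of 16 paternally expressed genes were higher and 8 were lower, with a median log2 ratio of -0.98, and 4 of 12 maternally expressed genes were higher and 6 were lower, with a median of -1.56. In iPSCs, 6 of 17 paternally expressed genes were higher and 8 were lower, and 5 of 12 maternally expressed genes were higher and 6 were lower. With NTC in place of the untreated V6.5 library, the median of the paternally expressed genes was 0.18 and that of the maternally expressed genes -2.21.

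The H19-Igf2 locus held the lowest ratios. Igf2 (chr7:142650766-142666816, minus strand, mm10), which encodes a fetal growth factor, was at 759.1 FPKM in MEFs, 8.58 FPKM in iPSCs, and 3.87 FPKM in mESCs. It was 196-fold lower in mESCs and 88.4-fold lower in iPSCs than in MEFs. H19 (chr7:142575529-142578143, minus strand, mm10), a maternally expressed lncRNA that shares its enhancers and control region with Igf2, was at 2451 FPKM in MEFs, 291.6 FPKM in iPSCs, and 47.7 FPKM in mESCs, which was 8.41-fold and 51.4-fold lower. H19 exceeded Igf2 per length in each library, by 3.23-fold in MEFs, 34.0-fold in iPSCs, and 12.3-fold in mESCs. In mESCs, H19 was at 1.95% and Igf2 at 0.509% of the MEF level. In the same library the fibroblast markers ranged from 0.559% for Col1a1 to 9.21% for Fn1, with the collagens at 0.559% to 0.689%, and the part of fibroblast RNA in these values was not tested. In iPSCs, H19 was at 11.9% and Igf2 at 1.13% of the MEF level, and the median of the fibroblast markers was 0.156%. Of the 50-nt stretches of Igf2, 61.2% are shared with the overlapping annotation Gm49394, so the split of its reads is uncertain.

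H19 is also the precursor of miR-675, and the mature sequences (RefSeq, GRCm38.p6) are shown because their host had the widest range of the set among the V6.5 libraries described below, with the seed of bases 2 to 8 in capitals.
mmu-miR-675-5p: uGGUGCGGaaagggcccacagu
mmu-miR-675-3p: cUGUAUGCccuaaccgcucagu
The arms have different seeds. The row of the miR-675 gene lay between 0.107 and 0.144 FPKM in all 5 libraries, which is too low to be compared with H19. Libraries of long RNA do not measure mature miRNAs.

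Several genes that receive or restrain IGF signals were lower as well. Igf2r, the maternally expressed receptor that carries Igf2 to lysosomes, was at 84.1 FPKM in MEFs, 19.05 FPKM in iPSCs, and 17.7 FPKM in mESCs. Grb10, a maternally expressed adaptor that restrains insulin and IGF receptor signalling, was at 169.8, 27.5, and 15.7 FPKM, 6.18-fold lower in iPSCs and 10.8-fold lower in mESCs. In a list of 18 other genes of IGF signalling, 17 passed in mESCs over MEFs, of which 2 were higher and 11, or 64.7%, were lower, against 23.3% of all genes, with a median log2 ratio of -2.13. The insulin receptor Insr and its substrate Irs2 stayed within 2-fold, with log2 ratios of -0.97 and -0.85. The highest was Igfbp2, an IGF-binding protein, at 24.2 FPKM in MEFs and 752.1 FPKM in mESCs, and the lowest was Igfbp5, another of that family, at 47.5 and 0.482 FPKM. The other higher gene was Igf2bp1, which binds Igf2 mRNA, at 8.54 and 47.2 FPKM. In iPSCs over MEFs, 2 of 17 were higher and 13 were lower, with a median of -3.43. Over all genes, 31.5% were higher and 21.3% were lower, with a median of 0.31. Thus the ligand, its receptor, and most of the listed Igfbp genes were at lower RNA levels in the pluripotent libraries, and Igfbp2 was not.

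The Kcnq1 cluster on chromosome 7 ran in both directions. Cdkn1c, which encodes the cell cycle inhibitor p57, was at 87.9 FPKM in MEFs, 26.2 FPKM in iPSCs, and 11.4 FPKM in mESCs, 7.74-fold lower in mESCs. Its neighbour Phlda2 (chr7:143501545-143503150, minus strand, mm10), a pleckstrin-homology protein that limits placental growth, was at 0.248 FPKM in MEFs, 36.3 FPKM in iPSCs, and 104.8 FPKM in mESCs. Phlda2 was the highest of the imprinted genes in both comparisons, with log2 ratios of 8.23 in mESCs and 6.71 in iPSCs, and its MEF value rests on an estimated 4.63 fragments. Slc22a18, a transporter-like gene, was at 1.34, 7.58, and 4.74 FPKM, but at 1.38 FPKM in NTC, which took its log2 ratio to MEFs from 1.75 with untreated V6.5 cells to 0.04. Ascl2, a transcription factor of trophoblast and intestinal stem cells, was at 0.0504, 3.80, and 1.53 FPKM. The MEF value of Ascl2 equals about 2 fragments, so its ratio in mESCs was 30.3 with an exact 95% counting interval of 8.06 to 256.5, and in iPSCs 75.3 with an interval of 20.4 to 627. These intervals cover counting error only. All 4 genes are known to be expressed from the maternal allele and to be silenced in cis by the paternally expressed Kcnq1ot1, which was listed at 0.0362, 0.0366, and 0.00653 FPKM.

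Lower levels in both pluripotent libraries were also found at single-gene and 2-gene loci. Gnas, the stimulatory G protein alpha subunit, was at 197.6 FPKM in MEFs, 33.7 FPKM in iPSCs, and 31.1 FPKM in mESCs. H13, the signal peptide peptidase, was at 26.5, 7.33, and 5.74 FPKM in the same order. Both are maternally expressed, and each overlaps a paternally expressed transcript on the same locus, Nespas at the start of Gnas on the other strand and Mcts2 within an intron of H13. Mcts2 was at 9.60, 20.0, and 10.2 FPKM, so H13 exceeded Mcts2 2.76-fold in MEFs and Mcts2 exceeded H13 2.72-fold in iPSCs and 1.77-fold in mESCs. Peg13 and Trappc9 kept their order but differed in direction. Peg13, a non-coding RNA inside Trappc9, was at 4.09, 1.24, and 0.313 FPKM, and Trappc9, a subunit of a trafficking complex, was at 6.62, 14.6, and 12.0 FPKM, so Trappc9 exceeded Peg13 in each library. The strand setting of the authors' counting is not given in the sources used here, so reads of overlapping genes may be shared between their values.

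Among the paternally expressed genes lower in both, Peg3, a zinc finger protein, was at 15.5 FPKM in MEFs, 3.04 FPKM in iPSCs, and 2.99 FPKM in mESCs. Mest, a hydrolase-fold protein, was at 63.1, 14.8, and 21.3 FPKM, and Ndn, the growth-suppressing MAGE protein necdin, at 63.7, 27.4, and 23.0 FPKM. Plagl1, the zinc finger factor Zac1, was at 8.89, 2.23, and 0.291 FPKM. The ratios of 3 of these depended on the V6.5 library. In NTC, Plagl1 was at 8.91 FPKM, which made its log2 ratio to MEFs 0.0035 in place of -4.52. With NTC, the log2 ratio of Peg3 was -1.45 in place of -2.33 and that of Ndn -2.62 in place of -1.47, both still lower by at least 2-fold. Impact, a regulator of the kinase Gcn2, was at 20.8, 13.8, and 10.1 FPKM, and only its mESC ratio reached 2-fold.

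At the Peg10-Sgce locus the neighbouring genes ran in opposite directions. Peg10 (chr6:4747306-4760517, plus strand, mm10), a retrotransposon-derived gene needed in the placenta, was at 2.84 FPKM in MEFs, 22.0 FPKM in iPSCs, and 14.5 FPKM in mESCs. Sgce (chr6:4674350-4747207, minus strand, mm10), which encodes epsilon-sarcoglycan and starts next to Peg10 on the other strand, was at 17.8, 5.99, and 3.77 FPKM. Sgce thus exceeded Peg10 6.27-fold in MEFs, and Peg10 exceeded Sgce 3.68-fold in iPSCs and 3.85-fold in mESCs, although both are paternally expressed. Ppp1r9a, the maternally expressed neurabin gene of the same locus, was at 0.0716, 1.29, and 1.10 FPKM.

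Most of the other genes that were higher in a pluripotent library, or lay within 2-fold, are paternally expressed. Mkrn3, a makorin RING finger gene, was at 0.454 FPKM in MEFs, 6.67 FPKM in iPSCs, and 1.32 FPKM in mESCs. Snrpn, a spliceosomal Sm protein, was at 9.68, 18.7, and 26.8 FPKM, and it reached 2-fold in mESCs only. Snrpn shares 21.7% of its 50-nt stretches with Snurf and Gm38393, and the sum of Snrpn and Snurf gave log2 ratios of 2.40 in mESCs and 1.83 in iPSCs. Slc38a4, an amino acid transporter, was at 21.2, 66.0, and 42.0 FPKM, and Zdbf2 was at 0.664, 1.52, and 1.38 FPKM. Both reached 2-fold in iPSCs, with log2 ratios of 1.63 and 1.08, and stayed just under it in mESCs, with 0.98 and 0.96. With NTC in place of untreated V6.5 cells, the ratio of Zdbf2 turned direction, to -0.94. Mcts2 and Trappc9, described above, were also higher by at least 2-fold in iPSCs only. Nnat and Ube3a stayed within 2-fold in both comparisons, Nnat at 9.93, 7.01, and 5.15 FPKM and Ube3a, an E3 ubiquitin ligase imprinted in neurons, 1.76-fold and 1.96-fold lower in iPSCs and mESCs than in MEFs, and Peg12, a Frat-related gene, was lower by at least 2-fold in iPSCs only, at 3.45, 1.52, and 2.78 FPKM. Sfmbt2, a Polycomb-type gene, passed in iPSCs only, at 0.616 FPKM in MEFs and 1.78 FPKM in iPSCs.

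**Figure D2:**
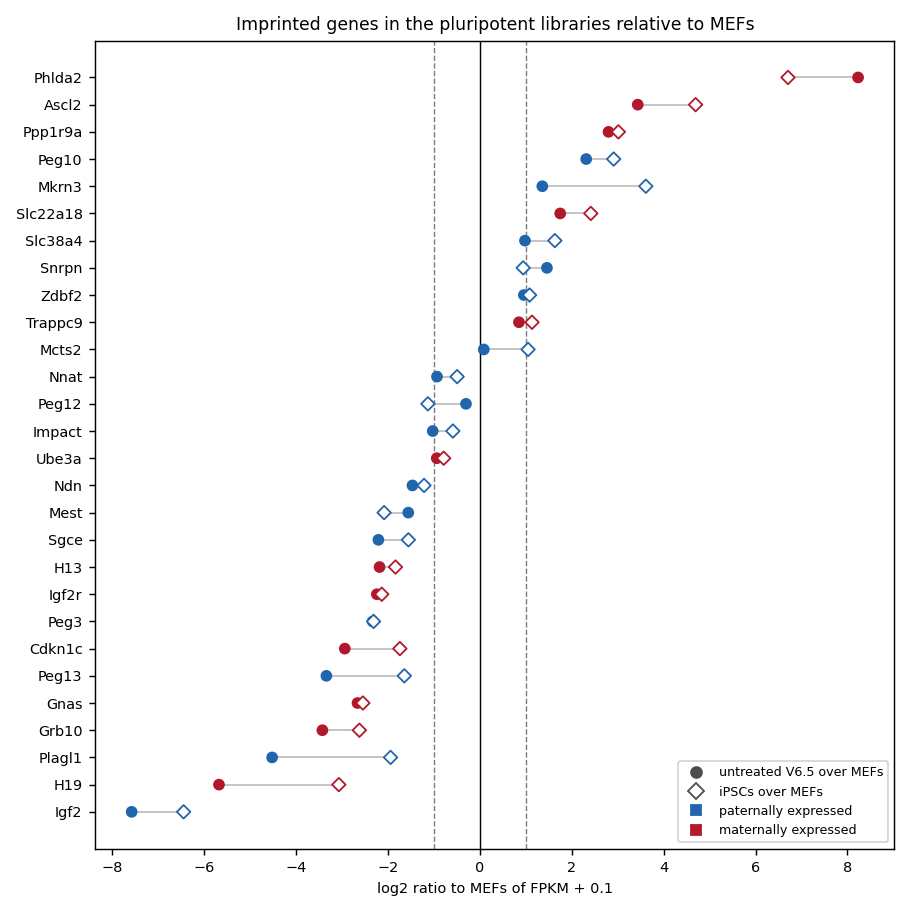
Log2 ratio to MEFs of FPKM + 0.1 for the 28 imprinted genes that passed the filter in both comparisons, with filled circles for untreated V6.5 cells, open diamonds for iPSCs, colour for the allele known to be expressed, and dashed lines at 2-fold. Both colours occur at both ends, from Igf2 at -7.58 and -6.45 to Phlda2 at 8.23 and 6.71.

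The pluripotent libraries were then compared with each other. In iPSCs over mESCs, 29 imprinted genes passed, 8 were higher, and 1 was lower, whereas 10.1% and 7.44% of 12323 genes were higher and lower. The median log2 ratio was 0.44 over the imprinted genes and 0.04 over all genes. Of the 29 ratios, 25 (86.2%) were above 0, against 52.6% of all genes. The higher genes were H19 at 6.11-fold, Plagl1 at 7.68-fold, Mkrn3 at 5.05-fold, Peg13 at 3.96-fold, Sfmbt2 at 2.93-fold, Ascl2 at 2.48-fold, Cdkn1c at 2.31-fold, and Igf2 at 2.22-fold. Phlda2 was the one lower gene, at 36.3 FPKM in iPSCs and 104.8 FPKM in mESCs. Cell type markers differed between these libraries too. In iPSCs over mESCs, 4 of 5 endoderm markers and 4 of 6 trophoblast markers were higher by at least 2-fold, with Gata6 at 4.46 FPKM in iPSCs and 0.646 FPKM in mESCs and Cdx2 at 3.34 and 0.274 FPKM, and 5 of 5 neural and 6 of 10 fibroblast markers were lower. Their part in the imprinted gene levels was not tested. With NTC in place of untreated V6.5 cells, which crosses the tables, 11 imprinted genes were higher, 4 were lower, and the median was 0.56. Peg10, at 22.0 FPKM in iPSCs, 14.5 FPKM in mESCs, and 45.7 FPKM in NTC, turned from the higher to the lower side. Of the genes named above as higher or lower by at least 2-fold, 3 turned direction. The log2 ratio of Plagl1 became -1.95, that of Ascl2 -0.95, and that of Phlda2 0.016. Peg13 and Sfmbt2 then stayed under 2-fold, at 0.62 and 0.92.

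Imprints are kept in early embryos and stem cells by zinc finger proteins that bind methylated control regions, by their cofactor Trim28, and by the maintenance methyltransferase Dnmt1. A list of 21 genes of imprint maintenance and establishment also held Tet1, Tet2, and Tet3, which oxidize 5-methylcytosine. All 21 passed in mESCs over MEFs. Of these, 13 (61.9%) were higher, Tet1 and Tet2 among them, and 1 was lower, with a median log2 ratio of 1.63. Over all genes, 30.3% were higher, and the median was 0.25. Zfp57, which recognizes a methylated hexamer in imprinting control regions, was at 7.51 FPKM in MEFs, 125.0 FPKM in iPSCs, and 99.4 FPKM in mESCs. Trim28 was at 156.0, 817.9, and 637.7 FPKM, and Dnmt1 at 25.3, 56.0, and 78.3 FPKM. Dppa3, which protects imprints in the zygote, was listed at 0 in MEFs and at 14.4 FPKM in iPSCs and 60.6 FPKM in mESCs. Tet3, an enzyme that oxidizes 5-methylcytosine, was the lower one, at 2.88, 1.12, and 0.844 FPKM. In iPSCs over MEFs, 11 (52.4%) were higher, against 31.5% of all genes, and 1, again Tet3, was lower. In iPSCs over mESCs, 2 were higher and 2 were lower, or 9.52% each, near the 10.1% and 7.44% of all genes. Dnmt3l, the cofactor of the de novo methyltransferases, was at 210.1 FPKM in iPSCs and 57.1 FPKM in mESCs, and Tet2 at 6.56 and 3.05 FPKM. Dnmt3a, a de novo methyltransferase, was at 5.40 FPKM in iPSCs and 23.2 FPKM in mESCs, and Dppa3 was also lower. In NTC, Dnmt3l was at 135.1 FPKM, Tet2 at 5.48 FPKM, and Dppa3 at 11.7 FPKM, so against NTC these 3 lay within 2-fold, with Dppa3 on the higher side in iPSCs. Dnmt3a, at 12.2 FPKM in NTC, stayed lower by at least 2-fold in iPSCs.

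The study holds 3 libraries of V6.5 cells, and imprinted genes were spread more widely among them than genes in general. Of the 30 imprinted genes that reached 1 FPKM in one of these libraries, 21 had a highest value at least 2-fold above the lowest on the FPKM + 0.1 scale, which was 70% of them, against 32.7% of 12453 genes. The median range was 1.41 on the log2 scale over the imprinted genes and 0.69 over all genes. By parental origin, 14 of 18 paternally expressed and 7 of 12 maternally expressed genes had such a range. Of the 21 genes of imprint maintenance and establishment, 7 did. The 3 libraries differ in shRNA treatment and come from separately made tables, so treatment, culture, and table cannot be told apart in this range.

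**Figure D3:**
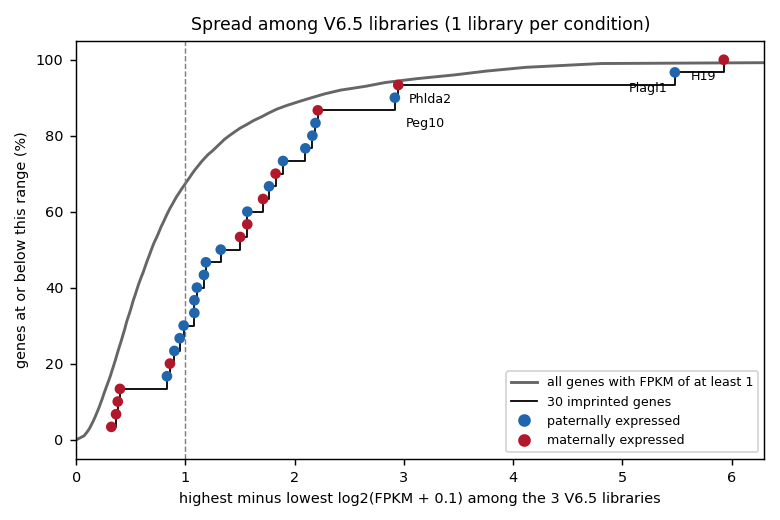
Share of genes (%) at or below each range of log2(FPKM + 0.1) among the 3 V6.5 libraries, for all genes (grey) and for the 30 imprinted genes (black, points coloured by expressed allele). The points lie to the right of the grey curve through most of the range, with a median of 1.41 against 0.69, and H19 and Plagl1 stand at the far end.

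H19 had the widest range, 61.6-fold, at 47.7 FPKM in untreated V6.5 cells, 8.42 FPKM in NTC, and 518.5 FPKM in shGldc. Plagl1 followed at 59.6-fold, with 0.291, 8.91, and 17.4 FPKM, so it was low in the untreated library and high in both shRNA libraries. The next ranges were those of Phlda2, at 104.8, 35.9, and 13.5 FPKM, and of Peg10, at 14.5, 45.7, and 110.4 FPKM. Phlda2 stepped down and Peg10 stepped up from untreated V6.5 cells to NTC to shGldc. At the other end, Igf2r, Ube3a, H13, and Gnas ranged by less than 1.5-fold. Igf2r, for example, was at 17.7, 18.1, and 14.0 FPKM. These genes are grouped here as maternally expressed, but Ube3a is imprinted in neurons, and the allele expressed in V6.5 cells was not measured.

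Plagl1 lies at chr10:13060504-13131694 (plus strand, mm10), and its imprinted promoter is a CpG-rich region that is methylated on the maternal copy. The 250 bases before the RefSeq start site (GRCm38.p6, chr10:13090582-13090831, plus strand) are shown because Plagl1 was the paternally expressed gene that differed most among V6.5 libraries. They hold 19 CpG dinucleotides, and the capitals mark 1 copy of GCGGCA, the reverse complement of the Zfp57 hexamer TGCCGC.
Plagl1: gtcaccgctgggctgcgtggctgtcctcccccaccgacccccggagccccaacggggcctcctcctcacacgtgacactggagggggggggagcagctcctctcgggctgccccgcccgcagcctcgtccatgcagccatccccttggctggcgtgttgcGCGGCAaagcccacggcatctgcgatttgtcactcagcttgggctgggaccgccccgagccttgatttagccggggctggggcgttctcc
The files hold no methylation data, and whether this hexamer was methylated or bound in any library was not measured.

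To place that match, TGCCGC was searched on both strands of the RefSeq windows of 300 bases around each start site (GRCm38.p6), from 250 bases before to 50 after. Of the 37 genes, 29 had a window. The hexamer was found for 9 of these, or 31.0%, and for 13.1% of 27025 genes. By window, 10 of 47 of the imprinted genes and 11.6% of all windows held it. The windows of the imprinted genes were also richer in CpG, with a median per gene of 17 against 8, so the shares are not at equal base composition. By parental origin, 7 of 18 paternally expressed and 2 of 11 maternally expressed genes had a match. The stretches around 1 match per gene are shown for the other 8 genes, with the hexamer in capitals in either direction, because they include the alternative promoters at which several of these loci are known to carry germline methylation.
Grb10 (chr11:12037379-12037408, minus): gggtgcggggagGCGGCAggaagggaaggg
Igf2 (chr7:142661224-142661253, minus): tacggtgtcccaGCGGCAgcacagattttg
Mcts2 (chr2:152686898-152686918, plus): gccTGCCGCagcttggcgcat
Mest (chr6:30737971-30738000, plus): aggaggggcgctGCGGCAggatgggcgggt
Nnat (chr2:157560093-157560122, plus): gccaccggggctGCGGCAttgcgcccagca
Snrpn (chr7:60005184-60005213, minus): gacccctgcattGCGGCAaaaatgtgcgca
Zdbf2 (chr1:63200191-63200220, plus): aagcgcatccatTGCCGCcgctttgcggct
Zim1 (chr7:6696435-6696464, minus): gaaagtcatcccGCGGCAttccactccggg
Mest held 2 matches in its window and Zdbf2 held 3. The genes with a match did not share a direction. In mESCs over MEFs, Igf2, Grb10, Plagl1, and Mest were lower by at least 2-fold, Snrpn was higher, and Nnat, Mcts2, and Zdbf2 were within 2-fold, and Zim1 stayed below 1 FPKM.

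To ask how imprinted genes stood after knockdown of Gldc, shGldc was compared with NTC, which is in the same table. In all, 28 imprinted genes passed, 6 were higher, and 2 were lower, whereas 8.97% and 7.68% of 11969 genes were higher and lower. The median log2 ratio was 0.34 over the imprinted genes and 0.04 over all genes. Over all genes that passed, 52.8% of ratios were above 0. Of the 17 paternally expressed genes that passed, 5 were higher and 0 were lower, 13 ratios were above 0, and the median was 0.57. Of the 11 maternally expressed genes, 1 was higher and 2 were lower, 5 ratios were above 0, and the median was -0.23.

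H19 was the one maternally expressed gene that was higher. It was at 8.42 FPKM in NTC and 518.5 FPKM in shGldc, 61.6-fold higher, with a log2 ratio above that of 99.9% of the genes that passed. It moved from rank 6104 to rank 137 among the genes of its library. Igf2, from the same locus, was at 0.826 FPKM in NTC and 1.28 FPKM in shGldc, within 2-fold, so H19 exceeded Igf2 10.2-fold in NTC and 405-fold in shGldc. Of the 7 fibroblast markers that passed, Pdgfra was higher, at 0.143 FPKM in NTC and 1.36 FPKM in shGldc, and Col1a1 and Thy1 were lower, at 1.24 and 0.125 FPKM and at 6.95 and 1.11 FPKM. Their part in the H19 level was not tested. Compared with untreated V6.5 cells, H19 was 10.9-fold higher in shGldc and 5.67-fold lower in NTC.

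The 5 higher paternally expressed genes were Sgce, Peg3, Peg10, Ndn, and Slc38a4. Sgce was at 2.70 FPKM in NTC and 9.42 FPKM in shGldc, 3.49-fold higher, and its neighbour Peg10 was at 45.7 and 110.4 FPKM, 2.41-fold higher. Peg3 was at 5.63 and 14.0 FPKM, which was close to the 15.5 FPKM of MEFs. Ndn was at 10.3 and 23.2 FPKM, and here the untreated V6.5 library, at 23.0 FPKM, matched shGldc and not NTC. Slc38a4 was at 34.2 and 73.6 FPKM. Just inside the 2-fold limit were Plagl1, at 8.91 and 17.4 FPKM with a log2 ratio of 0.95, and Impact, at 9.77 and 18.3 FPKM with 0.90, followed by Mest, at 27.6 and 45.3 FPKM with 0.71.

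The lower genes were both from the Kcnq1 cluster. Phlda2 was at 35.9 FPKM in NTC and 13.5 FPKM in shGldc, 2.66-fold lower. Ascl2 was at 7.44 and 3.22 FPKM, 2.31-fold lower. The neighbours Cdkn1c and Slc22a18 were at 4.65 and 3.95 FPKM and at 1.38 and 1.43 FPKM, within 2-fold. Trappc9 was at 7.20 and 3.99 FPKM, with a log2 ratio of -0.84. Snrpn was at 53.1 and 33.3 FPKM, a log2 ratio of -0.67, but Snurf, with which it shares reads, was at 4.07 and 37.4 FPKM. The sum of Snrpn and Snurf gave a log2 ratio of 0.31, so the direction of Snrpn alone is uncertain. The remaining genes that passed, Igf2r, Grb10, Gnas, H13, Ube3a, Nnat, Peg12, Mkrn3, Mcts2, Peg13, Sfmbt2, and Nespas, lay within 2-fold, with log2 ratios from -0.71 for Mcts2 to 0.49 for Peg13. Nespas, the antisense RNA of the Gnas locus, was at 1.07 FPKM in NTC and 1.39 FPKM in shGldc, and at 0.0269, 0.502, and 0.233 FPKM in MEFs, iPSCs, and untreated V6.5 cells.

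Untreated V6.5 cells, in the other table, served as a second reference. In shGldc over untreated V6.5 cells, 30 imprinted genes passed, 10 were higher, and 7 were lower, with 9.89% and 13.9% of 12237 genes higher and lower. In NTC over untreated V6.5 cells, 28 passed, 7 were higher, and 8 were lower, with 4.99% and 10.3% of 12048 genes. The control shRNA library thus differed by at least 2-fold from untreated V6.5 cells at more imprinted genes than from shGldc. By parental origin, 16 of 18 paternally expressed genes were above 0 in shGldc over untreated V6.5 cells, with a median of 0.90. Of 12 maternally expressed genes, 8 were below 0, with a median of -0.40. Over all genes, 48.8% were above 0 and 51.2% were below. In NTC over untreated V6.5 cells the medians were 0.77 and -0.79. These comparisons share libraries with each other and with shGldc over NTC.

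Gene by gene, H19, Peg3, Peg10, and Sgce were at least 2-fold higher and Phlda2 was at least 2-fold lower in shGldc over either reference. Peg10 was 7.60-fold, Peg3 4.68-fold, and Sgce 2.50-fold higher, and Phlda2 7.77-fold lower, in shGldc than in untreated V6.5 cells. Ndn, at 23.2 and 23.0 FPKM, and Slc38a4, at 73.6 and 42.0 FPKM, were within 2-fold there. Ascl2 turned direction, at 1.53 FPKM in untreated V6.5 cells, 7.44 FPKM in NTC, and 3.22 FPKM in shGldc. Several genes set both shRNA libraries apart from the untreated one, namely Plagl1, Nespas, Nnat, Peg10, and Ascl2 on the higher side and Igf2, Cdkn1c, Phlda2, Slc22a18, Grb10, and Zdbf2 on the lower side. Nnat, a small membrane proteolipid, was at 5.15 FPKM in untreated V6.5 cells and at 13.03 FPKM in NTC and 13.02 FPKM in shGldc. Grb10 was at 15.7, 5.84, and 4.35 FPKM. Of the genes on the lower side, Igf2, Cdkn1c, and Grb10 were at 87.9 FPKM or more in MEFs, and Phlda2, Slc22a18, and Zdbf2 at 1.34 FPKM or less. Against untreated V6.5 cells, 5 of 10 fibroblast markers were lower and 1 was higher in NTC. In shGldc, 6 of 11 were lower and 0 were higher. The part of fibroblast RNA in these values was not tested.

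**Figure D4:**
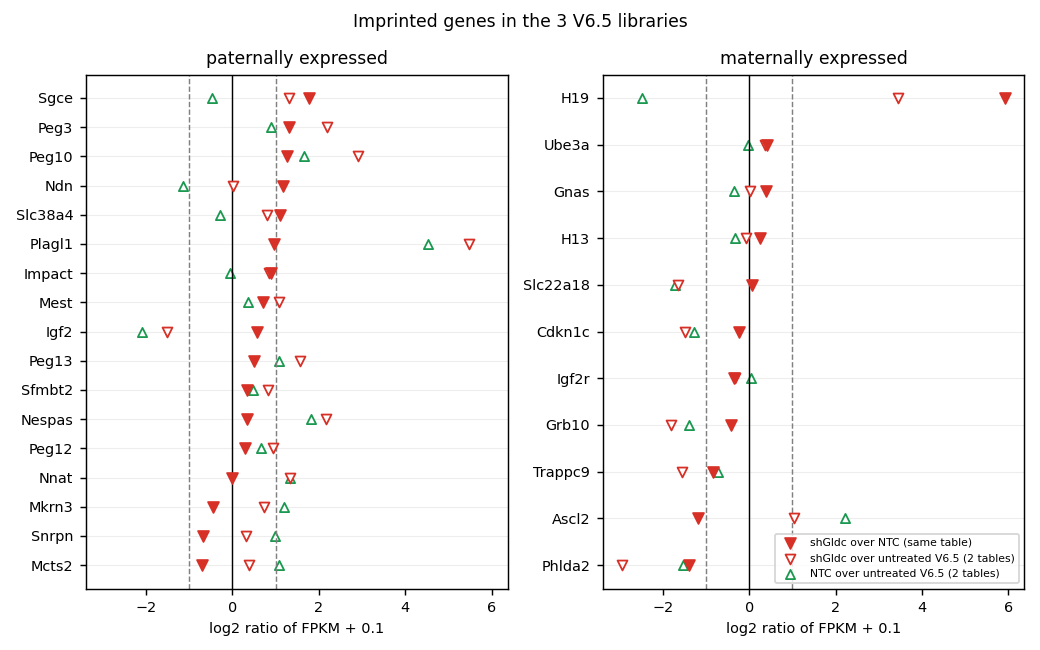
Log2 ratios of FPKM + 0.1 among the 3 V6.5 libraries for the 28 imprinted genes that passed in shGldc over NTC, by the allele known to be expressed. Filled triangles are shGldc over NTC, open red triangles shGldc over untreated V6.5 cells, open green triangles NTC over untreated V6.5 cells, and dashed lines mark 2-fold. H19 stands at 5.93 and Phlda2 at -1.41 in shGldc over NTC. Of the filled triangles of the paternally expressed genes, 13 of 17 lie above 0, against 52.8% of all genes that passed.

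Markers of several early lineages also differed between NTC and shGldc, in both directions. The summed level of 10 endoderm markers was 15.1 FPKM in NTC and 34.7 FPKM in shGldc, with Gata6 at 0.462 and 8.22 FPKM and Gata4 at 2.38 and 7.84 FPKM, while Ttr and Afp were listed at 0 in both. That of 10 trophoblast markers was 60.7 and 87.7 FPKM, with Cdx2 at 5.41 and 33.3 FPKM, a difference as large as that of the sums, and Tfap2c, the most abundant of the list, lower at 45.8 and 38.4 FPKM. That of 10 mesoderm and streak markers was 168.0 and 377.5 FPKM, with Cdx1 at 156.8 and 328.1 FPKM making up most of each sum and Hoxb1 listed at 0 in NTC and at 9.62 FPKM in shGldc. Other members of that list were lower in shGldc, namely Mixl1, at 1.36 and 1.23 FPKM, and Mesp1, Tbx6, Hand2, and Meox1, which stayed below 1 FPKM in both. The summed level of 10 neural markers was lower, at 130.6 FPKM in NTC and 79.7 FPKM in shGldc, with Stmn2 at 91.6 and 36.2 FPKM. That of 10 pluripotency markers was 4410 FPKM in NTC and 3808 FPKM in shGldc. Of their log2 ratios, 9 were below 0, with a median of -0.64, and only Dppa5a, the most abundant, was higher, at 1440 and 1792 FPKM. H19, Peg3, and Peg10 are known to be expressed in such lineages, and the part of these cells in the imprinted gene levels was not tested.

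The genes of imprint maintenance and establishment were then compared between NTC and shGldc. Of the 21, 0 were higher by at least 2-fold and 1 (4.76%) was lower, against 8.97% and 7.68% of all genes. In all, 16 ratios (76.2%) were below 0, against 47.2% of all genes, and the median log2 ratio was -0.25. The lower one was Tet1, which oxidizes 5-methylcytosine, at 6.86 FPKM in NTC and 2.96 FPKM in shGldc. The highest ratio was that of Dppa3, at 11.7 and 20.3 FPKM. Zfp57 was at 85.2 and 54.4 FPKM, Trim28 at 1119 and 893.1 FPKM, Dnmt1 at 91.7 and 74.6 FPKM, and Ctcf, which insulates Igf2 from its enhancers on the maternal allele, at 41.9 and 42.8 FPKM. In the IGF list, 2 of 14 genes were higher and 0 were lower. These were Igfbp6, at 0.837 and 2.43 FPKM, and the insulin receptor substrate Irs2, at 3.05 and 6.71 FPKM.

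The 7 genes below 1 FPKM throughout were mostly lncRNAs and brain-expressed genes. Airn, the antisense lncRNA that silences Igf2r on the paternal allele, was at 0.615 FPKM in MEFs, 0.0207 FPKM in iPSCs, and 0.0159 FPKM in shGldc, and listed at 0 in the other libraries. Igf2r was also highest in MEFs, so both genes of that pair were highest in the same library. Usp29, a ubiquitin protease gene that starts beside Peg3, was at 0.0317 FPKM in MEFs and 0.0763, 0.268, 0.459, and 0.707 FPKM in iPSCs, untreated V6.5 cells, NTC, and shGldc. Zim1 was highest in MEFs, at 0.713 FPKM, and Asb4 was at 0.290 FPKM in MEFs and listed at 0 in NTC and shGldc. Magel2 lay between 0.0912 and 0.962 FPKM, Kcnq1ot1 between 0.00653 and 0.0547 FPKM, and Rasgrf1, a Ras exchange factor of the brain, reached 0.101 FPKM in iPSCs and was listed at 0 in 3 libraries. Kcnq1ot1 is annotated at 93092 nt, so its values equal an estimated 83.0 fragments in MEFs, 75.2 in iPSCs, and 15.0 in untreated V6.5 cells. In NTC and shGldc they equal an estimated 110 and 147. Differences among the values of these 7 genes were not detectable at this depth where they rest on a few fragments.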

How the data were processed

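The authors extracted total RNA with TRIzol, checked its integrity, sequenced it on an Illumina HiSeq X instrument, mapped reads to mm10 with TopHat2 2.1.0, assembled transcripts with StringTie 1.3.4d, and computed expression with Ballgown. The submitters' processing notes also name SAMtools 1.7 and the build mm9, and the annotation, strand setting, and filters are not given in the sources used here. The deposited values are FPKM in 2 tables made separately, of 3 and 2 libraries. From these FPKM values, log2(FPKM + 0.1) differences were computed, and a gene was counted as higher or lower at a difference of 1 or more when it reached 1 FPKM in either library compared. Ratios to untreated V6.5 cells from NTC or shGldc cross the tables. With 1 library per condition no test was run. Depth came from the spacing of the lowest FPKM values, multiplied by length, among 5723 genes annotated with 1 transcript each. Positions, overlaps, and shared 50-nt stretches come from GENCODE M21 (mm10), and promoter windows and miRNAs from RefSeq (GRCm38.p6). The promoter set used here had no entry for Peg10, Sgce, Peg13, Trappc9, Nespas, H19, Impact, and Cdkn1c, so these were not searched.

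All 37 imprinted genes are named. The rule for the other lists was their highest and lowest genes and those behind small counts, of which the text names those that its results turn on. The members and lists were chosen with earlier results of these data known. Alternatives were another pseudocount (1 or 0.01), a filter at FPKM 5 or none, rescaling to equal FPKM sums, centring on the median, the mean for the median, and the other V6.5 library as reference. Scripts were tested on simulated data and run with Python 3.11.15, numpy 2.4.6, pandas 2.3.3, and matplotlib 3.10.9.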

Additional observations from a re-analysis of the deposited data

How the results depend on the processing

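Of 139 summary values under other settings, 123 stayed within tolerance of the reported ones, and so did 464 of 541 values of single genes. The tolerance was 1.5 times for a count and, for a log2 value, 0.594, the robust SD of NTC over untreated V6.5 cells. Rescaling to equal FPKM sums or centring moved 0 of 114 ratios beyond it. Both shift all ratios of a comparison by nearly the same amount, at most about 0.31, so this outcome was fixed in advance. With NTC in place of untreated V6.5 cells only 17 of 57 ratios stayed within the tolerance, 36 moved, and 4 reversed. Reversed means a change of sign from a ratio of at least 1 in size, so smaller sign changes are outside it. With untreated V6.5 cells as control for shGldc only 9 of 28 stayed. These swaps all apply the same difference per gene, NTC over untreated V6.5 cells, and no share over all genes was computed. Most single-gene ratios in these comparisons thus depended on which V6.5 library was used. With a filter of FPKM 5, 3 genes were higher in mESCs over MEFs (median -1.87, maternally expressed genes -2.45), 7 in iPSCs over MEFs (median -1.39), and 4 in iPSCs over mESCs. Without a filter, the median of the paternally expressed genes in mESCs over MEFs was -0.30, and 2 genes were lower in iPSCs over mESCs. With a pseudocount of 1, 4 were higher in iPSCs over mESCs and 1 was lower in shGldc over NTC. The mean in iPSCs over MEFs was -0.12. With NTC in place of untreated V6.5 cells, chosen after seeing the data, mESCs over MEFs gave medians of 0.18 and -2.21 for paternally and maternally expressed genes and 0.0035 for Plagl1, and iPSCs over mESCs gave 4 lower genes, with 0.016 for Phlda2, -0.95 for Ascl2, and -1.95 for Plagl1. With untreated V6.5 cells as control for shGldc, 10 genes were higher and 7 were lower, and Ascl2 was at 1.03. Fewer genes pass the stricter filter, and otherwise the cause was not tested. No paired analysis was possible because each condition is 1 library, and no library could be left out. Depth limits values that rest on a few fragments, such as Ascl2 and Phlda2 in MEFs.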

Other observations

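Other imprinted genes, outside the 37, were described from lists written by hand. Of 20 further imprinted genes of the same loci that passed in mESCs over MEFs, 4 (20%) were higher and 7 (35%) were lower, against 30.3% and 23.3% of all genes. The highest was Cobl, an actin nucleator beside Grb10, at 0.506 FPKM in MEFs and 21.1 FPKM in mESCs, and the lowest was Osbpl5, a lipid transfer gene of the Kcnq1 cluster, at 31.8 and 0.990 FPKM. In shGldc over NTC, 2 of 18 were higher and 2 were lower, 11.1% each, near the 8.97% and 7.68% of all genes. Cobl was at 35.2 FPKM in NTC and 7.78 FPKM in shGldc, and Slc22a3, an organic cation transporter beside Igf2r, was at 0.0686 and 1.89 FPKM. The other higher gene was Snurf, at 4.07 and 37.4 FPKM, which shares reads with Snrpn, and the other lower gene was Adam23, at 9.09 and 2.996 FPKM. Grb10 was at 5.84 and 4.35 FPKM in the same libraries.

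Of 12 imprinted genes of other loci that passed in mESCs over MEFs, 3 (25%) were higher and 4 (33.3%) were lower. Gab1, an adaptor of growth factor receptors, was at 4.98 FPKM in MEFs and 84.7 FPKM in mESCs, and decorin (Dcn), a matrix proteoglycan, was at 45.3 and 1.93 FPKM and listed at 0 in iPSCs, NTC, and shGldc. In shGldc over NTC, 2 of 11 (18.2%) were higher and 0 were lower. These were Bmp1, a procollagen protease, at 2.68 and 6.504 FPKM, and Zrsr1, a splicing factor retrogene, at 4.20 and 9.35 FPKM.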
